A study of Mus musculus with 3 samples.

Results

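Among 43464 nuclei from the prefrontal cortex of 3 groups of mice, 404 met a gate for GABA neurons of the type made for the olfactory bulb. These nuclei are called Meis2 GABA nuclei here, by the gate that chose them. A nucleus entered when it had at least 1 unique molecular identifier (UMI, 1 captured RNA molecule) of Gad1, Gad2 or Slc32a1, no UMI of Slc17a7, at least 2 UMIs of Meis2 and at least 1 UMI of Sp8, Tshz1, Th, Pax6, Synpr or Scgn. Nuclei with any UMI of the medium spiny neuron genes Rgs9, Pde10a, Drd1 and Drd2, or of the cortical interneuron genes Lhx6, Sst, Vip and Pvalb, were left out. The members were thus chosen by the measured counts of these 19 genes, and those reported below are given as a description, without a test.

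The study compared the prefrontal cortex of Nav1 knockout mice with that of isogenic controls by single-nucleus RNA-seq, and the series also holds a library from the strain BTBR T<+> Itpr3<tf>/J. All mice were male and 6 to 8 weeks old, and none received a treatment that the labels name. The C57BL/6J library came from 5 pooled wild-type mice, and the Nav1 KO library from 4 pooled mice of the C57BL/6 strain with a CRISPR deletion at the end of exon 1 of Nav1. The number of BTBR mice is not given in the sources used here. Nuclei were sorted after NeuN staining, the sorted NeuN+ and NeuN- nuclei were collected, and 10x Genomics 3' libraries were made. The labels name the sampled cells as neurons, but 1597 kept nuclei had at least 2 UMIs of the astrocyte genes Aqp4 and Gja1, and 807 had at least 2 of the myelin genes Mag and Mog. Each group is 1 library of pooled animals, and nothing separates a group from its dissection, its sort or its library. Intervals between libraries cover counting error only, and no p-value between groups is given. The BTBR strain differs from C57BL/6J across the genome, and the Nav1 KO carries its deletion in every cell.

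Interneurons of the olfactory bulb use GABA, and in rodents many are born after birth in the ventricular-subventricular zone and migrate to the bulb. There they become granule cells, which inhibit mitral and tufted cells through synapses between dendrites, or periglomerular cells around the glomeruli, some of which make dopamine. Meis2 is a homeodomain transcription factor of the TALE group that works with Pax6 in the dopaminergic periglomerular fate, and it also marks other GABA neurons of ventral origin, among them medium spiny neurons and the intercalated cells of the amygdala. Th encodes tyrosine hydroxylase, the rate-limiting enzyme of dopamine synthesis. Sp8 and Tshz1 are transcription factors of bulb interneurons, Tshz1 being also an intercalated cell marker, and Synpr encodes the synaptic vesicle protein synaptoporin. The adult prefrontal cortex is not a site where periglomerular or granule cells are known to settle.

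After the filter on genes and mitochondrial counts, 14630 C57BL/6J, 14056 Nav1 KO and 14778 BTBR nuclei remained, with 38704723, 50965774 and 48948184 UMIs. The median nucleus had 2074 UMIs in C57BL/6J, against 2754 in Nav1 KO and 2510.5 in BTBR. The Meis2 GABA nuclei numbered 25 in C57BL/6J, against 210 in Nav1 KO and 169 in BTBR, and held 48579, 468897 and 383957 UMIs. Their median depth was 1356 UMIs in C57BL/6J, against 2073.5 in Nav1 KO and 1879 in BTBR. The C57BL/6J members thus formed by far the smallest set, in nuclei and in depth, and 1 UMI there was a larger part of the sum than in the other libraries. The libraries of C57BL/6J and Nav1 KO, C57BL/6J and BTBR, and Nav1 KO and BTBR shared 66, 59 and 55 cell barcodes, and no shared barcode was a member in both.

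The gate removed nuclei at every step. In C57BL/6J 1601 nuclei had a GABA UMI and no Slc17a7, 502 of these had 2 or more UMIs of Meis2, 69 then lacked the medium spiny neuron genes, 56 also lacked the cortical interneuron genes, and 25 had a second marker. The same steps left 1600, 832, 366, 328 and 210 nuclei in Nav1 KO. In BTBR they left 1911, 710, 285, 241 and 169. The step that separated the libraries most was the removal of nuclei with medium spiny neuron UMIs, which kept 69 of 502 nuclei in C57BL/6J and 366 of 832 in Nav1 KO. UMIs of these genes were also more abundant in C57BL/6J oligodendrocytes, with Pde10a at 359 CPM, against 195 in Nav1 KO and 207 in BTBR, and Rgs9 at 91.8, against 16.6 and 40.7. Oligodendrocytes are here nuclei with at least 2 UMIs of Mag and Mog and no UMI of Gad1, Gad2 or Slc32a1. Members at the edge of the Meis2 rule, with exactly 2 UMIs, numbered 5, 34 and 41 in C57BL/6J, Nav1 KO and BTBR. Just outside, 15, 36 and 44 nuclei met every other condition with 1 UMI of Meis2. The median member had 4 UMIs of Meis2 in each library, and the highest had 19, 21 and 16. A GABA call rested on exactly 1 UMI in 13, 83 and 68 members.

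As a share of all kept nuclei, Meis2 GABA nuclei made up 0.171% in C57BL/6J (exact Clopper-Pearson 95% interval 0.111 to 0.252), 1.49% in Nav1 KO (1.30 to 1.71) and 1.14% in BTBR (0.978 to 1.33). The share was low in C57BL/6J and high in the other libraries, and the interval of C57BL/6J overlapped neither of the others. It was 8.74 times as high in Nav1 KO as in C57BL/6J (5.76 to 13.8) and 6.69 times as high in BTBR (4.38 to 10.6), ratios that share the C57BL/6J library. Between Nav1 KO and BTBR the ratio was 1.31 (1.06 to 1.61). With the medium spiny neuron genes not used in the gate, which then admitted 115, 458 and 345 nuclei, the ratios over C57BL/6J were 4.15 (3.37 to 5.13) and 2.97 (2.4 to 3.70), so their size depends on that step. With 1 UMI of these genes allowed they were 7.08 (5.18 to 9.87) and 5.19 (3.77 to 7.27). The part that background UMIs of these genes had in the ratios was not tested. Among GABA nuclei the share was 1.56% (1.01 to 2.30) in C57BL/6J, 13.1% (11.5 to 14.9) in Nav1 KO and 8.84% (7.61 to 10.2) in BTBR, so the order of the libraries was the same in both denominators.

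The share of a second olfactory bulb class moved with this one. Mitral and tufted cells are the glutamatergic output neurons of the olfactory bulb. Nuclei with a UMI of Slc17a7 or Slc17a6, none of the GABA genes and at least 2 UMIs of Eomes, Tbx21, Cdhr1, Lhx1 or Lhx5 numbered 13 in C57BL/6J, against 222 in Nav1 KO and 186 in BTBR, or 0.0889%, 1.58% and 1.26% of nuclei. Their share was 17.8 times as high in Nav1 KO as in C57BL/6J (10.2 to 33.9) and 14.2 times as high in BTBR (8.08 to 27.1). Genes of olfactory ensheathing glia, the glia that wrap olfactory axons, summed to 168 CPM (counts scaled to a common total per sum) in the remaining nuclei of C57BL/6J, against 296 in Nav1 KO and 209 in BTBR. That list includes Npy, which cortical interneurons also held, so its sum is not specific to these glia. Cortical interneurons were GABA nuclei with at least 2 UMIs of Lhx6, Sst, Vip or Pvalb and none of the medium spiny neuron genes. They did not move in that way, with 66, 62 and 112 nuclei and a ratio of 0.978 in Nav1 KO (0.680 to 1.40) and 1.68 in BTBR (1.23 to 2.31). Medium spiny neurons, the projection neurons of the striatum, were GABA nuclei with at least 2 UMIs of Rgs9, Pde10a, Drd1 and Drd2 and none of the cortical interneuron genes. They went the other way, with 629, 379 and 443 nuclei and ratios of 0.627 (0.551 to 0.714) and 0.697 (0.616 to 0.789). Background UMIs of the medium spiny neuron genes can thus remove nuclei from the first class and add them to the second, which was not tested. Oligodendrocytes made up 1.18%, 1.22% and 0.886%. Per mitral or tufted nucleus there were 1.92 Meis2 GABA nuclei in C57BL/6J, against 0.946 in Nav1 KO and 0.909 in BTBR. The part that these classes had in the share was not tested, and genotype or strain, dissection, sort and library cannot be told apart.

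**Figure D1:**
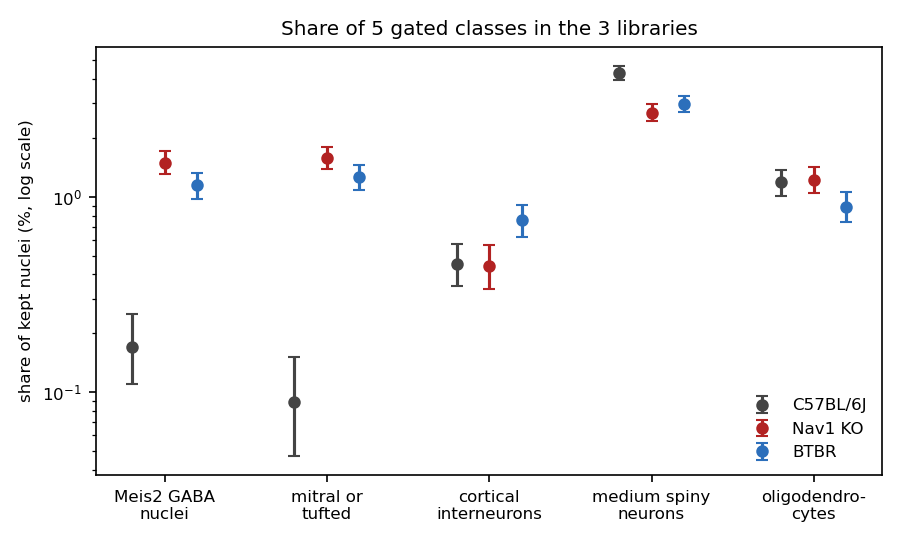
Share of kept nuclei (percent, log scale) of 5 gated classes in the C57BL/6J, Nav1 KO and BTBR libraries, with exact 95% intervals for counting error. Meis2 GABA nuclei (0.171%, 1.49% and 1.14%) and mitral or tufted neurons are lowest in C57BL/6J, and medium spiny neurons are highest there.

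Nav1, the microtubule-associated neuron navigator that the knockout targets (chr1:135434580-135607295, minus strand, mm10), cannot check the labels, because 3' reads fall outside the deleted end of exon 1. It measured 309 CPM (exact Poisson 95% interval 173 to 509) in the C57BL/6J members, 141 (109 to 179) in the Nav1 KO members and 109 (78.8 to 148) in the BTBR members. The Nav1 KO level was 0.456 of that in C57BL/6J (0.257 to 0.860), and the BTBR level 0.354 (0.192 to 0.688). In the remaining nuclei it measured 345, 265 and 146 CPM, and the libraries had the same order there. Nnt, a mitochondrial transhydrogenase gene that is partly deleted in the C57BL/6J substrain, measured 0 counts, 32.0 CPM and 13.0 CPM in the members, where 0 counts allow up to 61.8 CPM, and 20.2, 15.0 and 13.5 CPM over all nuclei. The female-specific RNA Xist stayed at 1.83, 0.903 and 1.35 CPM over all nuclei of these male mice.

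Meis2 (chr2:115863064-116065839, minus strand, mm10) measured 2408 CPM (1992 to 2886) in the C57BL/6J members, 2412 (2274 to 2557) in the Nav1 KO members and 2091 (1949 to 2241) in the BTBR members. The rest of the nuclei held 379, 491 and 473 CPM. The summed level was alike in the members of C57BL/6J and Nav1 KO and somewhat lower in those of BTBR. Among the GABA enzymes and transporter, Gad1 measured 618, 629 and 646 CPM, Gad2 371, 239 and 203 CPM, and Slc32a1, which loads GABA into vesicles, 165, 203 and 221 CPM in the members of C57BL/6J, Nav1 KO and BTBR.

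The second marker most often present was Synpr, with a UMI in 204 of 404 members (50.5%). Tshz1 had a UMI in 171 (42.3%), Pax6 in 137 (33.9%), Th in 58 (14.4%), Sp8 in 37 (9.16%) and Scgn, the calcium-binding protein secretagogin, in 16 (3.96%). A sole second marker admitted 236 members, 124 had 2 of them, 37 had 3 and 7 had 4. Tshz1 alone admitted 86 members and Synpr alone 81. Cortical interneurons held 377, 466 and 525 CPM of Synpr in C57BL/6J, Nav1 KO and BTBR, against 247, 397 and 320 CPM in the members, which were chosen partly on this gene. Without Synpr among the second markers, the share was 1.15% in Nav1 KO and 0.954% in BTBR.

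Th (chr7:142892752-142931128, minus strand, mm10) was found in 1 of 25 C57BL/6J members, in 39 of 210 Nav1 KO members (18.6%, 13.6 to 24.5) and in 18 of 169 BTBR members (10.7%, 6.44 to 16.3). Its level was 20.6 CPM (0.521 to 115) in C57BL/6J, 119 (90.2 to 155) in Nav1 KO and 72.9 (48.5 to 105) in BTBR. The wide interval of C57BL/6J rests on 1 UMI and overlaps those of the others. The highest Th count in a nucleus was 5.

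Among the 58 members with Th, 35 also had Synpr (60.3%), 23 had Pax6 (39.7%) and 6 had Tshz1 (10.3%). Outside the gate, 37 of them had Etv1 (63.8%), an ETS transcription factor of dopaminergic periglomerular cells, and 32 had Trh (55.2%), the precursor of thyrotropin-releasing hormone. Members with Th made up 32 of the 54 members with Trh. Tshz1 met Trh in 3 of 171 nuclei and Penk, the proenkephalin precursor, in 36. No member with Th had a UMI of Calb1 or Calb2, which encode calbindin and calretinin, the calcium-binding proteins of other periglomerular cells. Only 8 members had Calb1 and 14 had Calb2, so the lack of overlap is not read as exclusion. These counts describe which genes met in a nucleus, at depths where a UMI is often missed.

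Of the other genes of the dopamine pathway, Ddc, which turns L-DOPA into dopamine, measured 0, 6.40 and 0 CPM in the members of C57BL/6J, Nav1 KO and BTBR. The dopamine transporter Slc6a3 measured 0, 21.3 and 2.6 CPM, with 10 UMIs in 9 Nav1 KO members, and Gch1, which makes the cofactor of Th, was at 0 counts in every library. The vesicular transporter Slc18a2 measured 20.6, 19.2 and 18.2 CPM, against 14.9, 15.2 and 16.4 CPM in the remaining nuclei. Pts, an enzyme in the synthesis of the same cofactor, measured 165, 32.0 and 85.9 CPM in the members, from 8, 15 and 33 UMIs. Qdpr, which recycles the cofactor, measured 0, 21.3 and 39.1 CPM, and Nr4a2, a transcription factor of dopamine neurons, 61.8, 32.0 and 15.6 CPM. Th, which the gate used, measured 1.09, 7.92 and 8.59 CPM in the remaining nuclei.

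Free RNA gives UMIs in nuclei that do not express a gene, so shares of nuclei with a UMI were set beside those in oligodendrocytes, with every nucleus thinned to 1000 UMIs. That depth was reached by 357 of 404 members and 353 of 475 oligodendrocytes, whose median depths before thinning were 1925 and 1698 UMIs. Of 807 nuclei with at least 2 UMIs of Mag and Mog, 332 had a GABA UMI and were left out of the oligodendrocytes. Members needed such a UMI, so the oligodendrocyte shares may understate the background, which was not tested. The gate of the members used Th and Meis2, and for them the comparison shows only the background. A UMI of Th was left in 8.96% of members and 0.283% of oligodendrocytes. For Trh the shares were 10.1% and 0.850%, for Dcx 28.6% and 3.97%, for Pbx3 50.4% and 10.2%, and for Meis1 12.9% and 4.25%. Etv1 stood closer to this background, at 18.8% and 7.37%. Meis2 itself was found in 21.8% of thinned oligodendrocytes, against 84.6% of members, and 36.6% of oligodendrocytes had it before thinning. Slc1a3, the astrocyte glutamate transporter GLAST, was at 15.1% of members and 13.9% of oligodendrocytes, but its UMIs were unevenly spread over the members, as given with the sub-clusters.

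The gate also admitted nuclei with glial genes. Of 1597 nuclei with at least 2 UMIs of the astrocyte genes Aqp4 and Gja1, 22 were members (1.38%, 0.865 to 2.08), against 376 of 41194 nuclei with neither astrocyte nor oligodendrocyte UMIs at that level (0.913%, 0.823 to 1.01). Of 807 nuclei with at least 2 UMIs of Mag and Mog, the myelin genes, 7 were members (0.867%, 0.349 to 1.78). At least 2 UMIs of Meis2 were present in 41.2% of the astrocyte-gated nuclei, 45.2% of those with myelin genes and 28.1% of the others. Within C57BL/6J 0.952% (0.116 to 3.4) of astrocyte-gated nuclei and 0.162% (0.103 to 0.243) of those with neither set were members, within Nav1 KO 1.19% (0.545 to 2.24) and 1.5% (1.30 to 1.72), and within BTBR 1.75% (0.875 to 3.10) and 1.13% (0.958 to 1.32). In each library these intervals overlapped, so nuclei with astrocyte genes were not measurably rarer in the gate. The 5 astrocyte markers summed to 679, 456 and 589 CPM in the members of C57BL/6J, Nav1 KO and BTBR, against 38.4, 244 and 216 CPM in cortical interneurons and 67.1, 239 and 196 CPM in medium spiny neurons. Slc1a3 was the most abundant of them, Aqp4 measured 0, 25.6 and 36.5 CPM and Gfap 0, 17.1 and 5.21 CPM. Oligodendrocyte markers summed to 371, 473 and 279 CPM and those of ensheathing glia to 165, 508 and 227 CPM. Of the 238 ensheathing glia UMIs in Nav1 KO, 66 were of Npy, which is also on the neuropeptide list. Another 123 were of Apod, and 29 of these lay in 1 nucleus. Prss56 measured 0, 8.53 and 28.6 CPM and Frzb 0, 12.8 and 13.0 CPM, so the sum is not read as a sign of ensheathing glia.

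How the members vary among themselves was described by clustering them on genes outside the gate, which gave 5 sub-clusters. The clusters were drawn from the genes of these nuclei, so no test was made between sub-clusters, and they are named by their leading genes. Each had nuclei of every library, and for no sub-cluster did the intervals of its share among the members of each library stand apart.

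The largest, with 126 nuclei (31.2%) and a median of 1858 UMIs, was led by Elavl2, an RNA-binding protein of neurons, Cacna2d2, a calcium channel subunit, Gm19938, Lingo2 and Trh. It had 6 C57BL/6J, 65 Nav1 KO and 55 BTBR nuclei. Trh measured 289 CPM and Th 168 CPM there, and 22.2% of its nuclei had a UMI of Th. Pax6 measured 314 CPM and Foxp2 179 CPM. It held 46 of the 85 Th UMIs and 79 of the 127 Trh UMIs of all members.

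The next, with 105 nuclei (26.0%) and the highest median depth, 2777 UMIs, was led by astrocyte genes and is called the Slc1a3 sub-cluster. Its leading genes included Slc7a11, the cystine transporter, at 668 CPM, Ntsr2 at 352 CPM, Slc1a3 at 834 CPM and Sat1 at 500 CPM. It held 277 of the 304 Slc1a3 UMIs of all members, and 66.7% of its nuclei had one, against 2.97% to 16.7% in the other sub-clusters. Apoe, the apolipoprotein that astrocytes release, measured 3579 CPM and had a UMI in 93.3% of its nuclei. It held the lowest level of Meis2 (1671 CPM) and Gad1 (394 CPM), with Gad2 at 117 CPM, and 53.3% of its nuclei had Pax6, a gene that astrocytes also express. The astrocyte markers summed to 1261 CPM there, those of oligodendrocytes to 780 CPM and those of ensheathing glia to 689 CPM, of which Apod made up 361 CPM. In the other sub-clusters the astrocyte sum was 64.0 to 91.4 CPM in 3 and 357 CPM in the smallest. It had 8 C57BL/6J, 59 Nav1 KO and 38 BTBR nuclei, and its astrocyte sum was 1304, 1010 and 1602 CPM in these. For these nuclei the label of olfactory bulb interneurons goes against the leading genes. The part that glial RNA had in them was not tested.

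The third, with 25% of the nuclei and a median of 1440 UMIs, was led by Macrod2, Gm26871, Cpne6, a calcium-dependent membrane-binding protein, the metalloprotease Adamts19 and Penk. Meis2 measured 3160 CPM, Pbx3 1714 CPM, Synpr 665 CPM and Tshz1 486 CPM in it. The fourth, with 60 nuclei (14.9%), was led by Syt10, a synaptotagmin, Sema3c, a secreted guidance cue, Galntl6, Crhbp, which binds corticotropin-releasing hormone, and Lgr6. It held the highest Meis2 and Gad1 levels, 3396 and 1213 CPM, with Tshz1 at 557 CPM, the carboxypeptidase Cpa6 at 494 CPM, Npy at 243 CPM and Tpbg, a glycoprotein of a granule cell subset, at 189 CPM. The smallest had 12 nuclei (2.97%), was led by the ribosomal protein genes Rps19, Rps23, Rps29, Rpl21 and Rpl11, and held 1070 CPM of Pcp4. Tshz1 and Penk were thus highest in other sub-clusters than Th and Trh. None of the sub-clusters was given a cell type name.

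**Figure D2:**
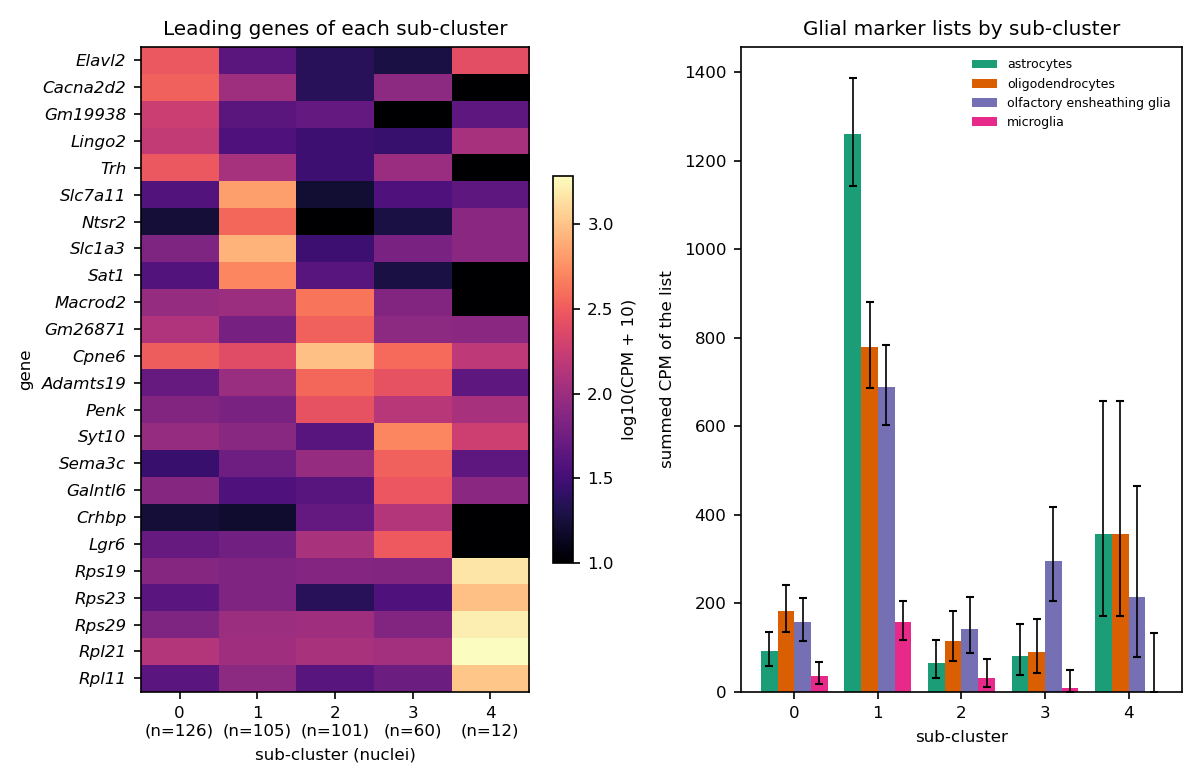
Left, summed level of leading genes of each of the 5 sub-clusters (color, log10 of CPM + 10). Right, summed CPM of glial marker lists in each sub-cluster, with exact Poisson 95% intervals. Sub-cluster 1, the Slc1a3 sub-cluster, holds 1261 CPM of the astrocyte list, above all other sub-clusters.

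Without the Slc1a3 sub-cluster, 299 members remained, 17 from C57BL/6J, 151 from Nav1 KO and 131 from BTBR. They made up 0.116%, 1.07% and 0.886% of nuclei. The Nav1 KO share was then 9.25 times that of C57BL/6J (5.59 to 16.3), and the BTBR share 7.63 times (4.59 to 13.5). The ratios between libraries were therefore as large without these nuclei as with them.

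To ask which genes set Meis2 GABA nuclei apart from other GABA neurons, the UMIs of each class were summed within each library and compared with those of cortical interneurons and of medium spiny neurons, which were gated on genes the members lack. The 3 libraries, of different genotype or strain, were the only replicates, with the library as a block. After Benjamini-Hochberg adjustment over 7300 genes in edgeR's quasi-likelihood test, 379 genes outside the gate were higher (5.2%) and 493 lower (6.77%) than in cortical interneurons, of 7286. Against medium spiny neurons 410 were higher (5.63%) and 474 lower (6.51%). Without the BTBR library these counts were 138 and 239, and 153 and 251, and without Nav1 KO 185 and 285, and 228 and 287. Without the C57BL/6J library, the smallest, they were 308 and 402, and 392 and 411. The median log2 fold change over all genes was 0.01 and 0.00. In both comparisons, which share the members' sums, 171 genes were higher and 125 were lower. Without the Slc1a3 sub-cluster 5633 genes could be tested, 151 were higher and 113 lower in both comparisons, and 106 and 58 genes were called in both ways of choosing the members. These were 62.0% and 46.4% of the genes called with all members, and 70.2% and 51.3% of those called without the sub-cluster.

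**Figure D3:**
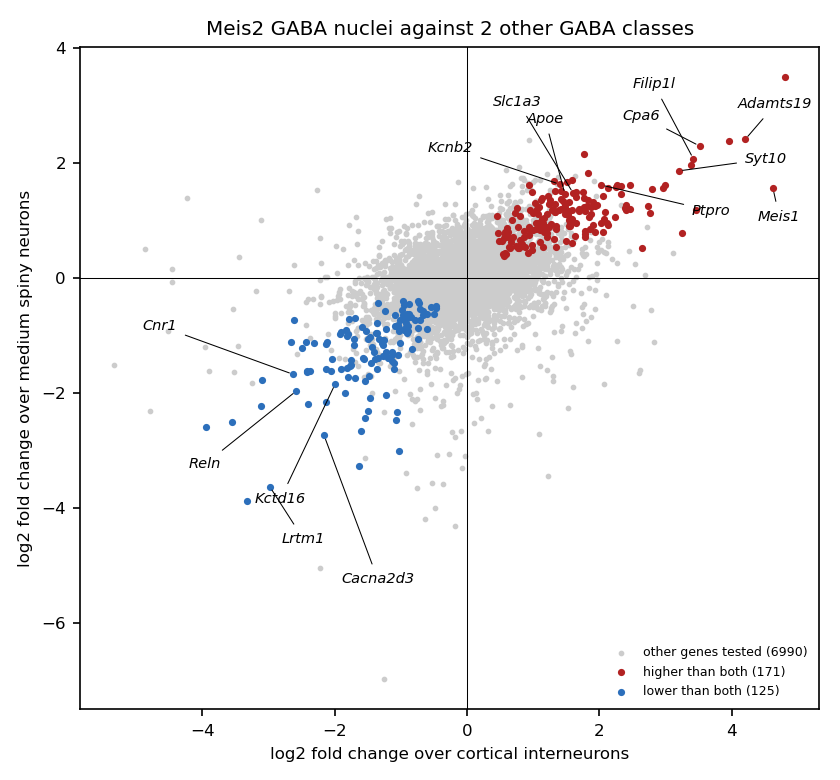
Log2 fold change of Meis2 GABA nuclei over cortical interneurons (horizontal axis) and over medium spiny neurons (vertical axis), 1 point per gene outside the gate. Colored points passed adjusted p in both comparisons with the same sign, 171 higher and 125 lower. Both axes share the members' sums, so the diagonal trend is no evidence of its own.

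Transcription factors of bulb interneurons that the gate did not use stood higher. Of 15 on the list, 10 had enough counts to be tested, and 5 of these, among them Etv1, Pbx3, Meis1 and Zic1, were higher than in either class. Nr2f2 was lower than in cortical interneurons, and Dlx1 higher and Bcl11b lower than in medium spiny neurons. The list's median log2 fold change was 1.19 over cortical interneurons and 0.97 over medium spiny neurons.

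Pbx3, a TALE homeodomain factor that binds DNA together with Meis proteins, measured 556, 710 and 951 CPM in the members of C57BL/6J, Nav1 KO and BTBR. Cortical interneurons held 69.2, 176 and 176 CPM and medium spiny neurons 236, 370 and 341 CPM. The members were higher in every library, and the groups did not overlap. Its log2 fold change was 2.4 ± 0.18 (SE, adjusted p = 1.44e-15, edgeR) over cortical interneurons and 1.18 ± 0.13 (adjusted p = 4.58e-10) over medium spiny neurons.

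Meis1 (chr11:18879817-19018985, minus strand, mm10), a paralog of Meis2, measured 144, 102 and 180 CPM in the members. Cortical interneurons held 0, 17.0 and 0 CPM and medium spiny neurons 23.5, 48.1 and 51.2 CPM. All 3 members' values lay above all 6 others. The log2 fold change was 4.63 ± 0.54 (edgeR adjusted p = 1.86e-09), fitted against counts near 0, and 1.56 ± 0.23 (5.26e-07).

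Etv1 measured 206, 279 and 188 CPM in the members, 84.6, 73.8 and 58.8 CPM in cortical interneurons and 43.6, 172 and 82.5 CPM in medium spiny neurons. Medium spiny neurons of Nav1 KO came close to the BTBR members. Its log2 fold change was 1.60 ± 0.27 (edgeR adjusted p = 1.55e-05) and 1.03 ± 0.18 (2.64e-05). Zic1, a zinc finger factor of septal and bulb neurons, measured 103, 74.6 and 54.7 CPM, with log2 fold changes of 1.54 (edgeR adjusted p = 0.0152) and 0.90 (0.0275). Zic1 was no longer called without the Slc1a3 sub-cluster, at 0.86 (0.352) and 0.21 (0.838), while Pbx3, Meis1 and Etv1 were. Dlx1 was then higher than in both classes (0.93, 0.0323, and 1.69, 8.77e-07).

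Genes of migrating neuroblasts did not stand higher as a list. Of 10, 7 were tested, and Dcx and Sox4 were higher than in both classes, while Tubb3 and Erbb4 were lower than in cortical interneurons. When the Slc1a3 sub-cluster was left out, Tubb3 was not called (-0.74, edgeR adjusted p = 0.108) and Sox2 was lower than in cortical interneurons (-1.81, 0.00411). The median log2 fold change of the list was -0.10 and 0.33. Doublecortin, encoded by Dcx (chrX:143855842-143933311, minus strand, mm10), binds microtubules in migrating neurons. It measured 391, 337 and 310 CPM in the members, 154, 102 and 137 CPM in cortical interneurons and 100, 174 and 146 CPM in medium spiny neurons, with no overlap. Its log2 fold change was 1.34 ± 0.21 (edgeR adjusted p = 3.31e-06) and 1.15 ± 0.16 (9.1e-08). Sox4, an early neuronal transcription factor, changed by 1.02 (0.0114) and 1.31 (4.6e-06). Of the genes of dividing cells, Top2a had 12 UMIs in 3 of 25 C57BL/6J members, or 247 CPM (128 to 431), and none in the other libraries, and Mki67 had 3, 1 and 3 UMIs. The list of dividing cells summed to 371 CPM (220 to 586) in C57BL/6J, against 12.8 in Nav1 KO and 31.3 in BTBR. All 12 UMIs of Top2a lay in the Slc1a3 sub-cluster, led by astrocyte genes, at 36.1 CPM there. That sub-cluster held 21 of the 36 UMIs of the list over all members.

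Lists of the mature bulb types gave few calls. Of 5 granule cell genes 3 were tested, and Tpbg was higher (log2 fold change 1.80, edgeR adjusted p = 0.00112) and Penk lower (-1.76, 6.39e-12) than in medium spiny neurons, with neither called against cortical interneurons. The 4 periglomerular calcium-binding genes were tested, and in edgeR none was higher, with 0 higher at an unadjusted p under 0.05 and 0 in DESeq2. Calb1 was lower than in both classes, by -3.10 (2.37e-06) and -1.77 (0.00746), Ncald lower than in cortical interneurons and Hpca lower than in medium spiny neurons. Of 7 dopamine genes outside the gate 2 were tested, and none was called in edgeR or DESeq2, with 1 higher than in medium spiny neurons at an unadjusted p under 0.05. On the list of amygdala intercalated cells, 2 of 3 genes were tested: Pbx3, given above, and Foxp2, a forkhead factor, which was higher than in cortical interneurons (1.83, 0.000183) and lower than in medium spiny neurons (-1.09, 1.83e-05). The calls of Tpbg and Calb1 changed when the Slc1a3 sub-cluster was left out: Tpbg was then higher than in both classes (1.62, 0.0424, and 2.24, 0.000108), and Calb1 was lower than in cortical interneurons (-2.85, 5.71e-05) but not called against medium spiny neurons (-1.5, 0.0639).

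Of 10 neuropeptide and related genes 8 were tested, and Trh was the only one of them higher than in both classes. Trh (chr6:92242061-92244650, minus strand, mm10) measured 0, 186 and 104 CPM in the members, where 0 counts in C57BL/6J allow up to 61.8 CPM, 15.4, 73.8 and 0 CPM in cortical interneurons and 6.71, 89.8 and 51.2 CPM in medium spiny neurons. Within Nav1 KO and within BTBR the members were highest, and the C57BL/6J members had none. Its log2 fold change was 2.07 ± 0.40 (edgeR adjusted p = 0.000118) and 1.03 ± 0.24 (0.00112). Npy, Cck, Tac1, Pnoc and Crh were lower than in cortical interneurons, led by Npy at -3.19 (1.54e-19), with 41.2, 141 and 96.4 CPM in the members and 1861, 1073 and 835 CPM in cortical interneurons. Tac1, which encodes substance P, was also lower than in medium spiny neurons (-2.65, 4.12e-13), and Nos1, the neuronal nitric oxide synthase, higher (1.29, 0.0315).

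Genes that mark the compared classes, other than those of their gates, were mostly lower. Against cortical interneurons 6 of 8 genes of caudal and 5 of 6 of medial ganglionic eminence origin were lower, with median log2 fold changes of -2.28 and -1.96. Among them were Npas1 (-4.52, edgeR adjusted p = 7.13e-11), Prox1 (-2.61, 0.0012), Adarb2 (-1.07, 1.9e-05), Satb1 (-2.23, 3.4e-08) and Maf (-2.21, 2.24e-10), all but the RNA editing family gene Adarb2 transcription factors. Lamp5 was higher (1.61, 0.00355). Against medium spiny neurons 6 of 7 tested striatal genes were lower, with a median of -2.65, including Ppp1r1b, the phosphatase inhibitor DARPP-32 (-4.31, 4.32e-11), and the forkhead factor Foxp1 (-2.23, 1.45e-15). The remaining one, Ano3, was not called against medium spiny neurons (0.41, 0.0994) and was higher than in cortical interneurons (1.07, 0.000605), and without the Slc1a3 sub-cluster it was higher than in cortical interneurons (1.38, 1.17e-05) and in medium spiny neurons (0.74, 0.00139). Nxph1 and Kcnc2, of the medial list, were higher than in medium spiny neurons. When the Slc1a3 sub-cluster was left out, Sox6 (-2.40, 0.0179) and Maf (-1.31, 0.00506) of that list were lower than in medium spiny neurons.

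GABA handling and receptors differed in single members. Of 6 GABA handling genes, all tested, Slc6a11, an astrocytic GABA transporter, was higher than in medium spiny neurons (1.53, edgeR adjusted p = 0.000683). Of 12 GABA-A receptor subunits 10 were tested. Gabra2 was higher than in cortical interneurons (1.21, 0.000167), Gabra4 was lower than in medium spiny neurons (-1.26, 8.14e-05), and Gabrg3 was lower than in both (-0.74, 0.0446, and -1.06, 5.89e-05). Leaving out the Slc1a3 sub-cluster ended the call of Gabrg3 against cortical interneurons (-0.46, 0.302) and kept that against medium spiny neurons (-0.75, 0.0138), and Slc6a11 then had too few counts to be tested. The 8 AMPA and NMDA receptor subunits had 1 higher and 2 lower against cortical interneurons and 2 lower against medium spiny neurons. Leaving out that sub-cluster gave 2 higher and 0 lower in each comparison. Of 12 guidance genes 11 were tested, and Epha5, an ephrin receptor, was higher than in both classes (0.77, 4.51e-06, and 0.89, 2.74e-08). Epha3 was higher and Robo1, the Slit receptor, lower than in medium spiny neurons, and leaving out the sub-cluster changed further calls on this list. Epha3 was then higher than in both classes (1.31, 0.0319, and 1.28, 0.00343), Plxna2 lower than in both (-0.87, 0.0243, and -0.72, 0.0322), Sema3c higher than in medium spiny neurons (1.00, 0.0229) and Unc5c lower (-1.08, 0.0187).

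Glial lists were not at 0. Of 5 astrocyte genes 3 were tested, and 2 were higher than in cortical interneurons and 3 than in medium spiny neurons. Slc1a3 (chr15:8634124-8710764, minus strand, mm10) measured 453, 305 and 362 CPM in the members, 23.1, 153 and 118 CPM in cortical interneurons and 32.2, 152 and 133 CPM in medium spiny neurons. Apoe (chr7:19696109-19699188, minus strand, mm10) measured 1997, 1555 and 1487 CPM, against 192, 732 and 745 CPM and 252, 902 and 562 CPM. For both genes the members were highest in every library. Their log2 fold changes were 1.61 ± 0.26 (edgeR adjusted p = 5.96e-06) and 1.47 ± 0.19 (2.93e-08) for Slc1a3, and 1.48 ± 0.19 (4.74e-08) and 1.46 ± 0.17 (1.27e-09) for Apoe. Without the Slc1a3 sub-cluster both reversed, to -1.42 (0.0017) and -1.59 (1.83e-05) for Slc1a3 and to -0.97 (5.12e-05) and -1.03 (2.57e-06) for Apoe. That sub-cluster was made from these genes, so the reversal describes where their UMIs lay. Of 6 ensheathing glia genes 3 were tested, with 1 lower against cortical interneurons and 2 higher against medium spiny neurons, Apod and Fabp7. When the sub-cluster was left out, Apod was not called, at -0.82 (0.161) against cortical interneurons and -0.82 (0.0721) against medium spiny neurons, from 0.79 (0.0826) and 0.79 (0.00971) with all members, and Fabp7 had too few counts to be tested. Of 5 oligodendrocyte genes 3 were tested, of 7 excitatory neuron genes 2 and of 8 mitral or tufted genes 1, with none called in either comparison in edgeR or DESeq2. At an unadjusted p under 0.05, 1 oligodendrocyte and 1 excitatory neuron gene differed in each comparison. When the sub-cluster was left out, the myelin gene Mbp was lower than in both classes (-1.05, 0.03, and -1.17, 0.00236), and Nrgn was higher than in cortical interneurons (1.07, 0.0312). Genes of dividing cells, oligodendrocyte precursors, microglia and endothelial cells had too few counts to be tested.

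Among all genes with at least 100 CPM in the members of each library, the 10 that stood highest over both classes were Adamts19, Cpa6, Filip1l, Syt10, Ptpro, Meis1, Slc1a3, Apoe, Gprc5b and Kcnb2. Adamts19, a secreted metalloprotease, measured 165, 124 and 156 CPM in the members, 0, 0 and 15.7 CPM in cortical interneurons and 6.71, 32.1 and 28.1 CPM in medium spiny neurons. Its log2 fold change was 4.21 ± 0.53 (edgeR adjusted p = 1.72e-08), fitted against counts near 0, and 2.41 ± 0.27 (4.3e-10). Cpa6 (chr1:10324720-10719945, minus strand, mm10), a secreted carboxypeptidase, measured 185, 211 and 107 CPM, against 15.4, 17.0 and 7.84 CPM and 8.72, 44.9 and 29.7 CPM. It stood higher by 3.52 ± 0.44 (edgeR adjusted p = 1.26e-08) and 2.30 ± 0.24 (4.32e-11). For both genes the members lay above all 6 sums of the other classes.

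Filip1l measured 103, 318 and 310 CPM in the members, 23.1, 11.4 and 35.3 CPM in cortical interneurons and 18.1, 95.4 and 57.8 CPM in medium spiny neurons. Its log2 fold changes were 3.42 ± 0.33 (edgeR adjusted p = 4.65e-12) and 2.07 ± 0.19 (4.12e-13). Syt10 (chr15:89782393-89841860, minus strand, mm10), a synaptotagmin that controls growth factor release in bulb neurons, was even across libraries at 124, 128 and 120 CPM. It measured 15.4, 17.0 and 7.84 CPM in cortical interneurons and 12.8, 40.9 and 33.8 CPM in medium spiny neurons, and changed by 3.20 ± 0.44 (2.05e-07) and 1.86 ± 0.24 (3.57e-08). The receptor phosphatase Ptpro measured 268, 200 and 167 CPM, the receptor Gprc5b 103, 147 and 130 CPM and the potassium channel Kcnb2 247, 226 and 180 CPM. Their log2 fold changes were between 1.41 and 2.03 in both comparisons. Without the Slc1a3 sub-cluster 8 of the 10 were still higher, and Cpne4, Shisa8 and Map3k1 took the places of Slc1a3, Apoe and Gprc5b.

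At the other end, among genes with at least 100 CPM in both other classes of each library, the 10 lowest were Lrtm1, Cacna2d3, Reln, Kctd16, Rims1, Cnr1, Cntnap5a, Slc24a2, Gm1604a and Adgrl2. Lrtm1, a leucine-rich repeat membrane protein, measured 0, 4.27 and 23.4 CPM in the members, 123, 108 and 129 CPM in cortical interneurons and 289, 114 and 164 CPM in medium spiny neurons, with log2 fold changes of -2.98 ± 0.42 (edgeR adjusted p = 3.41e-07) and -3.62 ± 0.33 (8.07e-13). Cnr1, the cannabinoid receptor of GABA terminals, measured 0, 55.4 and 138 CPM, against 384, 397 and 850 CPM and 320, 289 and 200 CPM, and changed by -2.62 ± 0.27 (5.63e-11) and -1.67 ± 0.26 (2.1e-06). The extracellular matrix protein Reln measured 20.6, 19.2 and 46.9 CPM, against 131, 233 and 219 CPM and 145, 102 and 125 CPM, at -2.58 ± 0.31 (4.89e-09) and -1.96 ± 0.28 (2.89e-07). The calcium channel subunit Cacna2d3 and the active zone protein Rims1 were lower in both comparisons, by -2.16 and -2.73 and by -1.69 and -1.73. All 10 were still lower without the Slc1a3 sub-cluster.

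**Figure D4:**
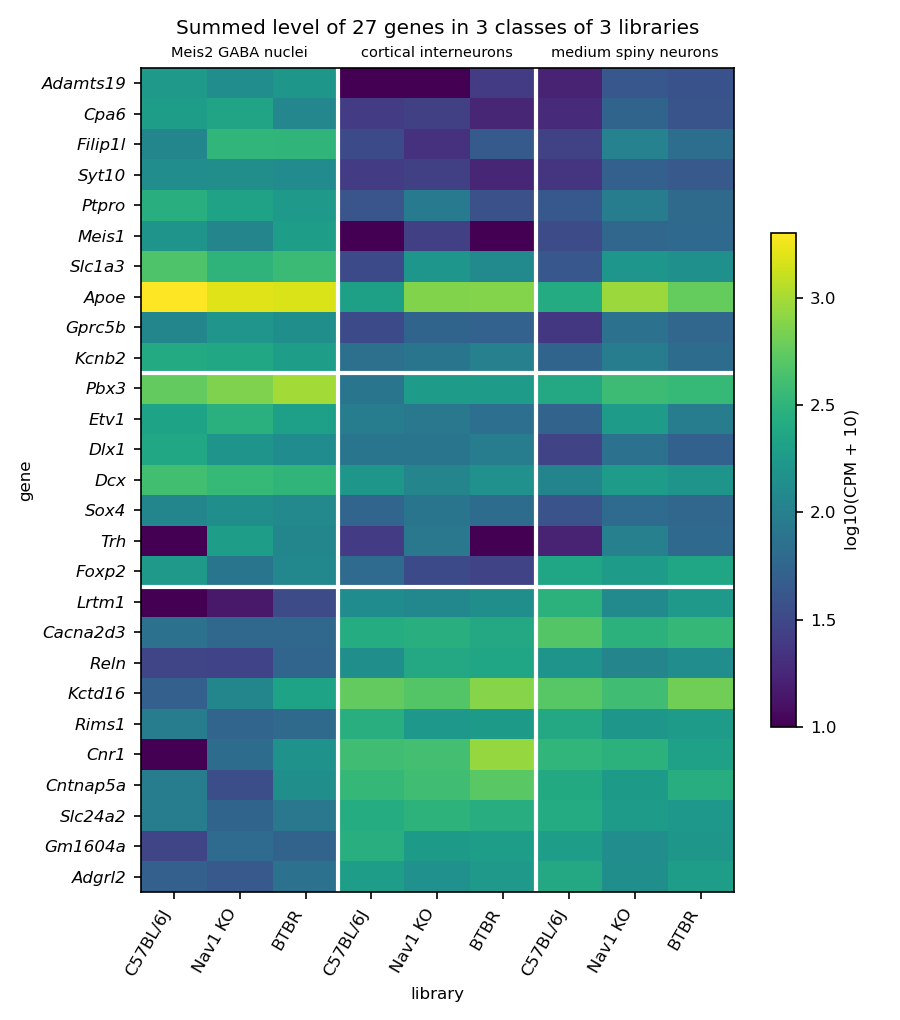
Summed level (color, log10 of CPM + 10) of the 10 highest genes, 7 list genes and the 10 lowest genes in Meis2 GABA nuclei, cortical interneurons and medium spiny neurons of each library. Meis1, Adamts19 and Cpa6 are high in all 3 sums of the members, and Lrtm1, Reln and Cnr1 are low in them.

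Between libraries, levels were compared within the members, with the C57BL/6J sum of 48579 UMIs limiting every ratio. A gene entered with at least 100 CPM in 1 library and at least 10 UMIs in the other. Among 2074 genes, 16 were more than 2-fold higher in Nav1 KO than in C57BL/6J (0.771%) and 515 more than 2-fold lower (24.8%). Among 2054 genes, 26 were more than 2-fold higher in BTBR than in C57BL/6J (1.27%) and 358 lower (17.4%). With CPM scaled by the trimmed mean of M values (TMM), these counts were 96 and 205, and 98 and 186. On the unscaled values the median gene stood at 0.725 in Nav1 KO and 0.796 in BTBR. In the C57BL/6J members 100 CPM equal 5 UMIs, and every gene that entered had at least 5 UMIs there, so genes low in C57BL/6J were left out by the minimum and the split between higher and lower genes is not read as a result. Of the 16 and 26 higher genes, 2 and 4 were also more than 2-fold higher in the remaining nuclei, and of the 515 and 358 lower ones 3 and 10 were also lower there.

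Ptgds, prostaglandin D2 synthase of oligodendrocytes and meninges, had the highest ratio in both comparisons. It had 5, 517 and 200 UMIs in the members of C57BL/6J, Nav1 KO and BTBR, or 103, 1103 and 521 CPM, and stood 10.7 times as high in Nav1 KO (4.56 to 33.1) and 5.06 times in BTBR (2.13 to 15.8). In the remaining nuclei it was 3.77 and 2.66 times as high, and 1 Nav1 KO member held 55 of its UMIs. Filip1l had ratios of 3.09 (1.29 to 9.65) and 3.01 (1.25 to 9.44) in the members and 3.37 and 3.97 in the remaining nuclei. For both genes the difference from C57BL/6J was thus present outside the members too.

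Plekha1, which binds phosphoinositides, was 2.96 times as high in Nav1 KO (1.24 to 9.26) and 3.44 times in BTBR (1.44 to 10.8), with 1.07 and 1.17 in the remaining nuclei. Unc80, of the sodium leak channel, was at 2.67 (1.53 to 5.07) in BTBR, with 1.23 in the remaining nuclei. Plekha1 had 5 UMIs in the C57BL/6J members and Unc80 had 13, so the lower bounds sit close to 1. An interval wholly above 1 was found for 22 of 2074 genes in Nav1 KO and 31 of 2054 in BTBR. Ptgds, Filip1l, Plekha1 and Unc80 were named for having the highest of these ratios. A high ratio was thus built in and is not read as a trait of the members.

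Among the lowest ratios were those of Pou3f2, a POU domain factor of neurons, with 11 UMIs in C57BL/6J, against 15 in Nav1 KO and 16 in BTBR. Its ratios were 0.141 (0.0606 to 0.340) and 0.184 (0.0802 to 0.439). Wscd2 (0.142), 4930594M22Rik (0.173), Cdh4 (0.173) and Doc2g (0.173) followed in Nav1 KO, and in BTBR Ireb2 (0.174), Fbxo8 (0.181) and Iqcb1 (0.181) stood below Pou3f2 and Lingo1 (0.190) above it, with 6 to 8 UMIs each in the C57BL/6J members. All 9 genes passed the minimum only through C57BL/6J and were picked as the lowest of their ratios, so a low ratio was built in and is not read as a trait of the members. In the remaining nuclei Doc2g was 2.33 times as high in Nav1 KO as in C57BL/6J. Of the genes that set the members apart from other GABA neurons, Pbx3 was 1.28 times as high in Nav1 KO and 1.71 times in BTBR (1.16 to 2.63), with 2.06 in the remaining BTBR nuclei, and Dcx was at 0.862 and 0.792. Meis2 was at 1.00 and 0.868.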

How the data were processed

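The authors deposited 1 table of raw UMI counts per library, made with Cell Ranger 6.0.0 against mm10. The members and gene lists were chosen with earlier results of these data known. Nuclei below 200 genes, or at 10% or more of mitochondrial counts, were dropped (kept: 14630 of 15402 in C57BL/6J, 14056 of 14623 in Nav1 KO, 14778 of 15238 in BTBR); the study states the same filter and 14630 and 14056 nuclei. No doublet caller was run and none were removed; the 10% of nuclei with most UMIs were left out as an alternative. CPM are counts divided by the sum and scaled to 1000000. Each group is 1 library, so groups were not tested. UMIs of each class were summed per library and tested with edgeR 4.0.16 (R 4.3.3, limma 3.58.1; filterByExpr, TMM, quasi-likelihood, library as block, adjusted p under 0.05); DESeq2 1.42.0 was an alternative. On simulated counts 120 of 181 genes changed 4-fold were found against cortical interneurons and 145 of 181 against medium spiny neurons, with 2 and 5 false calls of 6797. The genes found were 80 raised and 40 lowered against cortical interneurons, and 91 and 54 against medium spiny neurons. The simulated libraries had no difference of genotype or strain, so the rate of false calls does not carry over to the real sums. Intervals are exact 95% intervals, and 0 counts were taken to allow 3. Members were clustered with scanpy 1.11.5 and leidenalg 0.10.2 (1000 variable genes outside the gate, 10 components, resolution 0.5, seed 0); leading genes had the highest fold over other members with 20 CPM added. The named genes were the gate and list genes, the 10 highest and 10 lowest by the smaller of both log2 fold changes among genes called in both comparisons, and the 5 highest and 5 lowest library ratios. Positions are from the mm10 annotation GENCODE M21 and span introns. Counting error alone sets the intervals, and PCR or sorting error is not in them. Leaving out nuclei with astrocyte UMIs, leaving out the Slc1a3 sub-cluster, loosening or dropping the gate on medium spiny neuron genes and other clustering resolutions were alternatives chosen after seeing the data. Python 3.11.15, numpy 2.4.6, pandas 2.3.3, scipy 1.17.1 and matplotlib 3.10.9 were used. Some genes that the rule names are not reported here.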

Additional observations from a re-analysis of the deposited data

How the results depend on the processing

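The ratio of the shares of Meis2 GABA nuclei stayed between 6.40 and 9.41 for Nav1 KO over C57BL/6J and between 5.19 and 7.63 for BTBR over C57BL/6J in 9 settings, and fell to 4.15 and 2.97 with the medium spiny neuron genes not used in the gate, an alternative chosen after seeing the data. The shares themselves moved beyond their intervals with the gate: 0.273%, 1.75% and 1.44% in C57BL/6J, Nav1 KO and BTBR with 1 UMI of Meis2, 1.25% (Nav1 KO) and 0.866% (BTBR) with 3, 1.15% and 0.954% without Synpr, 0.106%, 0.851% and 0.670% with nuclei thinned to 1000 UMIs, 1.07% (Nav1 KO) and 0.886% (BTBR) without the Slc1a3 sub-cluster, 0.314%, 2.23% and 1.63% with 1 UMI of the medium spiny neuron genes allowed, and 0.786%, 3.26% and 2.33% with these genes not used.

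Counts of genes called fell under several settings, and the cause was not tested except where fewer genes or libraries entered. Higher and lower than in cortical interneurons were 184 and 277 with DESeq2 and 189 and 280 without the library block. Against medium spiny neurons these were 166 and 197, and 216 and 296. Genes higher than in medium spiny neurons were 273 without nuclei with glial UMIs and 269 without nuclei with astrocyte UMIs. Leaving out each library in turn gave 138 to 308 genes higher and 239 to 402 lower than in cortical interneurons, and 153 to 392 and 251 to 411 against medium spiny neurons, lowest without BTBR each time. Slc1a3 and Apoe reversed without the Slc1a3 sub-cluster, to -1.42 and -1.59 and to -0.97 and -1.03, and Apoe was not called without nuclei with astrocyte UMIs (0.25, edgeR adjusted p = 0.461, and 0.44, 0.0802). The other 18 genes named by size kept their direction and call in each alternative.

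Genes more than 2-fold higher in the members of Nav1 KO were 96 with TMM scaling, 3 at a minimum of 200 CPM and 20 UMIs and 43 after thinning, and those lower 205 with TMM and 112 at the stricter minimum. For BTBR these were 98, 4 and 55, and 186 and 71. Clustering at a resolution of 0.3 gave 3 sub-clusters and at 1.0 gave 9. No paired analysis was possible because the labels carry no replicate numbers and each group has 1 library. With 25 members in C57BL/6J, a gene needs 3 UMIs, or 61.8 CPM, to be told from 0 there.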
